A study of Mus musculus with 20 samples.

Results

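In mouse embryonic fibroblasts, 2397 places had a peak of the condensin II subunit CAP-D3 in wild-type cells (WT) and none within 1 kb in cells with a mutated retinoblastoma protein (RbL), although the partner subunit CAP-H2 was called there in both genotypes. They were chosen from the peak lists by position: WT CAP-D3 peaks on chromosomes 1 to 19 with no RbL CAP-D3 peak within 1 kb, overlapped by at least 1 bp by a CAP-H2 peak of each genotype. They are 2397 of 17192 WT CAP-D3 peaks on these chromosomes and of 17576 in the whole list, and are called WT-only CAP-D3 peaks at stable CAP-H2 here. Stable means only that CAP-H2 was called in both genotypes, in 1 library each, and not that its score was equal. Because presence in the 4 condensin II lists chose them, everything about those lists at these peaks is a description and carries no test. The rule used no TFIIIC or H3K27me3 list, but it was set with earlier results of these data known, among them a lower TFIIIC share at condensin II regions.

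Condensin II is a ring-shaped complex that compacts chromosomes and stays in the nucleus throughout the cell cycle. Its ring is closed by the kleisin CAP-H2, which links the SMC2 and SMC4 ATPases and carries the HEAT-repeat subunits CAP-D3 and CAP-G2, so CAP-D3 and CAP-H2 belong to the same complex. The retinoblastoma protein pRb binds proteins with an LXCXE motif through a cleft in its pocket, and CAP-D3 is among its known interactors. TFIIIC is the DNA-binding factor that recruits RNA polymerase III to tRNA genes and also sits at sites without the polymerase. H3K27me3 is the histone mark laid down by Polycomb repressive complex 2.

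Chromatin immunoprecipitation and sequencing (ChIP-seq) was done on C57BL/6 fibroblasts from E13.5 embryos, used at passage 4 while cycling asynchronously. The WT group carried unmutated Rb1, and the RbL group was homozygous for the L allele of Rb1 (Rb1L/L), which alters the LXCXE-binding cleft; no other allele or treatment is named in the labels. CAP-D3 and CAP-H2 had 1 library per genotype, and TFIIIC and H3K27me3 had 2. By its title, the study asks how pRb brings condensin II to promoters. Condensin II and H3K27me3 chromatin was fixed with EGS, a protein crosslinker, and formaldehyde, and TFIIIC chromatin with formaldehyde alone. Whether the paired libraries of a genotype came from separate cultures is not stated, so p-values reflect a spread that may be technical only. The 12 lists held between 13233 and 301874 peaks, with both RbL TFIIIC lists (294135 and 301874) longer than both WT lists (200350 and 239960). The number of reads behind them is unknown. Positions are given in the mm9 build, and gene names were not assigned, since no mm9 annotation was used here.

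Of all WT CAP-D3 peaks on these chromosomes, 7520 (43.7%) had no RbL CAP-D3 peak within 1 kb. Among these 7520, CAP-H2 was called in both genotypes at 2397, or 31.9% (exact binomial 95% interval 30.8 to 32.9, which like all intervals here covers counting error only). It was called in WT alone at 339 (4.51%), in RbL alone at 392 (5.21%) and in neither at 4392 (58.4%). WT CAP-D3 peaks that did have an RbL peak within 1 kb had CAP-H2 in both genotypes in 6238 of 9672 cases (64.5%, 63.5 to 65.4), and these 6238 are called retained peaks. Of the 9672, CAP-H2 was called in WT alone at 665 (6.88%), in RbL alone at 825 (8.53%) and in neither at 1944 (20.1%). With or without an RbL CAP-D3 peak, CAP-H2 was thus usually called in both genotypes or in neither. Over all WT CAP-D3 peaks the share with CAP-H2 in both was 50.2%.

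The mirror image of the pattern was also present. Of 12926 RbL CAP-D3 peaks on chromosomes 1 to 19, 3521 (27.2%) had no WT peak within 1 kb, and 1456 of these (41.4%, 39.7 to 43.0) overlapped CAP-H2 peaks of both genotypes. A CAP-D3 call of 1 genotype over a CAP-H2 call of both therefore occurred in both directions, at 2397 places with the WT call and at 1456 with the RbL call. With 1 CAP-D3 library per genotype neither number has a replicate check. The numbers also come from lists of unlike length, with 17192 WT and 12926 RbL CAP-D3 peaks on these chromosomes. With the WT list cut to its 13233 highest-scoring peaks, 1345 places had the WT call. The mirror count was not compared at that setting.

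The WT-only peaks were weak and narrow for CAP-D3 peaks. Their WT CAP-D3 score, the authors' peak score, ran from 59.9 to 1800.7 with a median of 233 (quartiles 185 and 323). Retained peaks had a median of 1023.3 (417 and 2975.9), and WT-only peaks without any CAP-H2 had 232 (189 and 287). The WT-only peaks at stable CAP-H2 therefore lay at the same score as WT-only peaks that lacked CAP-H2. Their median width was 535 bp (range 305 to 2435), against 921 bp for retained peaks and 516 bp for WT-only peaks without CAP-H2. The mirror peaks had a median width of 633 bp and a median score of 388 in their own RbL list.

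The share of peaks without an RbL partner was lower at higher CAP-D3 scores. Among the 8635 WT CAP-D3 peaks with CAP-H2 in both genotypes, 64.5% (599 of 928, 61.4 to 67.6) of those scoring up to 185 had no RbL CAP-D3 peak within 1 kb. The share was 61.5% (599 of 974) between 185 and 233, 55.5% (599 of 1080) between 233 and 323, and 10.6% (600 of 5653, 9.82 to 11.4) above 323. The CAP-H2 score separated them far less. In 4 classes by the lower CAP-H2 score of the genotypes, divided at 128, 265 and 592, the shares from lowest to highest were 31.3%, 30.4%, 26.9% and 23.8%.

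**Figure D1:**
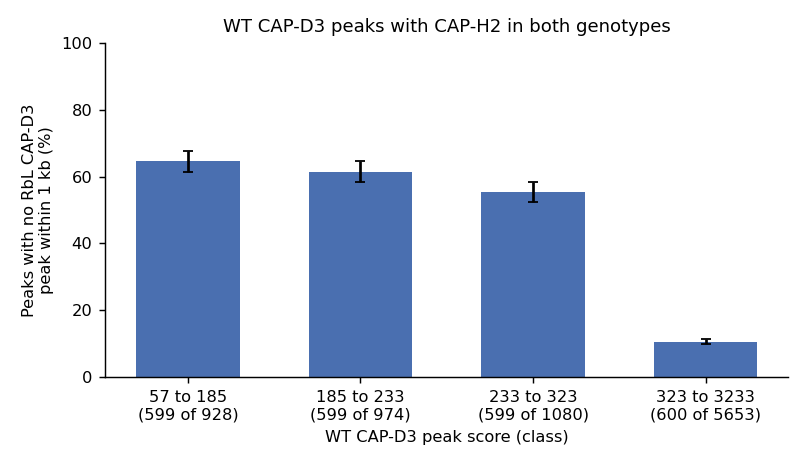
Share (%) of WT CAP-D3 peaks with CAP-H2 in both genotypes that had no RbL CAP-D3 peak within 1 kb, in 4 classes of WT CAP-D3 score; bars show the share, error bars the exact binomial 95% interval, and the numbers under each class the peaks. The share was 64.5% in the lowest class and 10.6% in the highest.

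The RbL CAP-D3 list held few peaks of such scores at all. A score under 233, the median of the WT-only peaks, was found for 28.5% of the WT list (4899 of 17192) and for 3.73% of the RbL list (482 of 12926). The tenth percentile was 171 in WT and 309 in RbL, and the lower quartile 222 and 405. The missing CAP-D3 calls thus concentrated in a score range that the RbL list hardly reached, and the part of this difference between lists in the missing calls was not tested. When the WT list was reduced to its 13233 highest-scoring peaks, as many as the RbL list holds, 1345 peaks met the rule.

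CAP-H2 scores at these peaks compared between genotypes as they did over the CAP-H2 list as a whole. The CAP-H2 score had a median of 301 in WT (quartiles 157 and 639) and of 434 in RbL (218 and 901), a median log2 ratio of 0.44 (quartiles −0.01 and 0.99). The RbL score was the higher one at 1669 of 2397 peaks (69.6%, 67.7 to 71.5), beside 71.5% of all 30069 CAP-H2 peaks shared between genotypes. It was at least 2-fold higher in RbL at 588 (24.5%, background 28.3%) and at least 2-fold higher in WT at 113 (4.71%, background 4.88%). Retained peaks had a median log2 ratio of 0.40, mirror peaks 0.54 and all shared CAP-H2 peaks 0.50. Peaks with and without an RbL CAP-D3 call thus had CAP-H2 score ratios near that of the CAP-H2 list as a whole, and scores of lists with different inputs do not measure enrichment between genotypes.

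**Figure D2:**
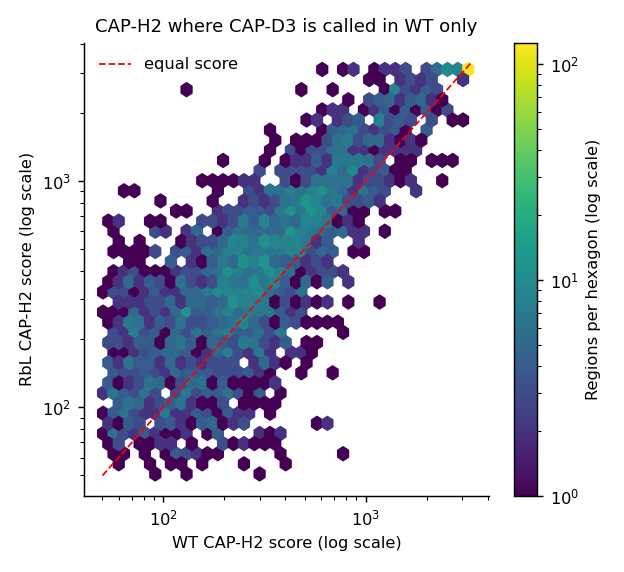
CAP-H2 peak score in RbL (y axis, log scale) against WT (x axis, log scale) at the 2397 CAP-D3 peaks called in WT only, with colour for the number of regions per hexagon (log scale). Most regions lie above the dashed line of equal score, 1669 of 2397, and many share the score of 3100 in both lists.

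The CAP-H2 peaks of the genotypes lay close together, which the rule largely sets, since each had to overlap the same CAP-D3 peak. At 2390 of 2397 (99.7%) the WT and RbL CAP-H2 peaks overlapped each other, and the midpoint of the CAP-D3 peak was a median of 162 bp from that of the WT and 158 bp from that of the RbL CAP-H2 peak. At retained peaks, which met the same overlap, this median was 195 bp for the CAP-H2 peaks of each genotype. These CAP-H2 peaks had median widths of 1152 bp in WT and 1136 bp in RbL. The CAP-D3 peak lay wholly inside CAP-H2 peaks of both genotypes at 1511 (63.0%), against 2306 of 6238 retained peaks (37.0%), which were wider. By median CAP-H2 score, the WT-only peaks (301 in WT, 434 in RbL) stood between the 19316 stable CAP-H2 peaks with no CAP-D3 peak within 1 kb in either genotype (166 and 245) and the mirror peaks (323 and 473) and retained peaks (364 and 513).

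The gap from these peaks to the nearest RbL CAP-D3 peak ran from 1.02 to 1485.4 kb, with a median of 34.3 kb (quartiles 12.4 and 83.3). An RbL CAP-D3 peak lay within 2 kb of 97 peaks (4.05%) and within 5 kb of 271 (11.3%). It lay within 10 kb of 514 (21.4%) and within 100 kb of 1897 (79.1%). The rule itself set the lower limit of 1 kb, and the gap was not compared with that of other peaks. In 59 cases the WT CAP-H2 peak, and in 63 the RbL CAP-H2 peak, also held an RbL CAP-D3 peak that was more than 1 kb away. The peaks nearest beyond the limit lay on chromosome 7 from 29164140 to 29164764 (gap 1018 bp, score 265), on chromosome 1 from 183988057 to 183988661 (1019 bp, score 283) and on chromosome 16 from 30068306 to 30068851 (1019 bp, score 245). Just within it, and so not counted, were peaks on chromosome 5 from 23930895 to 23931794 (994 bp, score 623), chromosome 8 from 126147262 to 126147912 (992 bp, score 247) and chromosome 19 from 5819442 to 5820012 (950 bp, score 442).

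The peaks were spread over all autosomes, with 83 on chromosome 18 and 186 on chromosome 2 as the extremes. As a share of WT CAP-D3 peaks with CAP-H2 in both genotypes they made up 24.0% on chromosome 11 and 33.1% on chromosome 16, the lowest and highest values of the 19 chromosomes. Another WT-only peak at stable CAP-H2 lay within 10 kb of 288 (12%) and within 100 kb of 971 (40.5%). Of 1202 windows of 1 Mb with such a peak, 590 held a single one and 67 held at least 5. This spacing was not compared with that of other CAP-D3 peaks. The fullest windows held 9 each: chromosome 17 from 56000001 to 57000000 (of 23 WT CAP-D3 peaks with CAP-H2 in both), chromosome 2 from 30000001 to 31000000 (of 23) and chromosome 9 from 108000001 to 109000000 (of 22). In the chromosome 17 window the CAP-D3 scores ran from 151 to 453 and a pair of neighbouring peaks shared 1 CAP-H2 peak.

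Some of the peaks share a CAP-H2 peak and are not independent. In WT 67 CAP-H2 peaks, and in RbL 64, held more than 1. The extreme was a CAP-H2 block on chromosome 11, from 86387102 to 86402796 in WT and from 86388326 to 86402661 in RbL, with a score of 3100 in both lists. Over its 15695 bp in WT it held 7 WT CAP-D3 peaks and 0 RbL CAP-D3 peaks. Blocks on chromosome 16 from 24392463 to 24395668 and on chromosome 17 from 5840602 to 5847055 each held 3 WT CAP-D3 peaks and 0 from RbL; the first had CAP-H2 scores of 1886.7 (WT) and 2369.3 (RbL), the second 1484.8 (WT) and 2482.4 (RbL).

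TFIIIC, whose lists the rule did not use, was called less often over these peaks in RbL than in WT. In WT libraries 1 and 2, 592 and 560 of the 2397 peaks overlapped a TFIIIC peak (24.7% and 23.4%), and in RbL libraries 1 and 2, 365 and 369 did (15.2% and 15.4%). Both WT values lay above both RbL values. The WT mean was 24.0 ± 0.944% and the RbL mean 15.3 ± 0.118% (SD, n = 2 each), which is a log2 ratio of −0.65. The two-sided exact permutation p was 0.333, the smallest that 2 against 2 libraries allow, so the comparison cannot pass 0.05 (0.451 after Benjamini-Hochberg adjustment over the 23 comparisons made). Over all 17192 WT CAP-D3 peaks the WT libraries gave 29.1% and 27.2% and the RbL libraries 19.2% and 19.0%. The lower RbL share was therefore not particular to these peaks, and a lower share of TFIIIC at condensin II regions was known from these data when they were chosen. At equal numbers of 200350 top-scoring TFIIIC peaks per library the log2 ratio was −1.14. When a TFIIIC peak within 1 kb counted as well, it was −0.15.

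Retained peaks had TFIIIC more often in each library. The WT libraries gave 47.5% and 43.1% and the RbL libraries 27% and 25.4%, a log2 ratio of −0.79. The difference between the log2 ratios of WT-only and retained peaks was 0.14 (exact permutation p 0.333, adjusted 0.451). It was 0.47 when TFIIIC had to cover at least 50% of the CAP-D3 peak and 0.07 with no RbL CAP-D3 peak within 5 kb or with equal numbers of CAP-D3 peaks. Without RbL replicate 2 it was 0.09 (exact permutation p 0.667). In percentage points, the RbL minus WT difference was −8.72 at WT-only and −19.12 at retained peaks, 10.41 apart. Mirror peaks, where CAP-D3 was called in RbL only, had means of 19.3 ± 1.36% in WT and 13.6 ± 0.146% in RbL (SD over n = 2 libraries each; log2 ratio −0.51). TFIIIC was thus called less often in RbL whether CAP-D3 was called in WT only, in both genotypes or in RbL only over a stable CAP-H2 peak. The genotypes did not overlap in any of these 3 classes.

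In the lists as deposited, the order of the genotypes was the opposite at peaks of a single subunit. At WT-only CAP-D3 peaks without CAP-H2, TFIIIC overlapped 10.2% and 11.4% by WT library and 13.2% and 14.0% by RbL library, a log2 ratio of 0.33. At stable CAP-H2 peaks without CAP-D3 the WT libraries gave 18.7% and 20.0% and the RbL libraries 20.6% and 21.0%, a log2 ratio of 0.11. The log2 ratio at WT-only peaks with stable CAP-H2 differed from the former by −0.98 and from the latter by −0.76, each with an exact permutation p of 0.333 (adjusted 0.451). The direction at the single-subunit peaks depended on the length of the TFIIIC lists. With equal peak numbers the log2 ratio was −0.10 at WT-only peaks without CAP-H2, where the libraries of the genotypes overlapped (exact permutation p 0.667), and −0.25 at stable CAP-H2 peaks without CAP-D3 (exact permutation p 0.333).

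**Figure D3:**
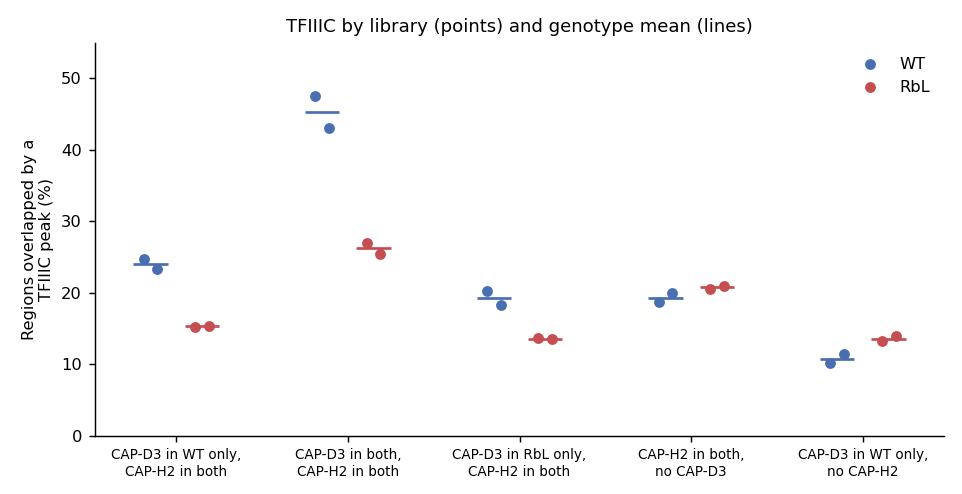
Share (%) of regions overlapped by a TFIIIC peak in each library, with points for the 2 libraries per genotype and lines for their mean, in 5 classes of condensin II region. WT lies above RbL in the 3 classes with both subunits (24.0% against 15.3% in the first) and below it in the 2 classes with a single subunit, an order that was lost at equal peak numbers, where the libraries overlapped at peaks without CAP-H2 and WT lay above RbL at those without CAP-D3.

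Within each class of WT CAP-D3 score, TFIIIC was called in WT cells at a smaller share of WT-only peaks than of retained peaks. From the lowest to the highest score class, 17.9%, 23.5%, 26.2% and 31.2% of WT-only peaks overlapped a peak of WT library 1, against 34.0%, 36.5%, 32.6% and 50.6% of retained peaks. In WT library 2 the shares were 15.2%, 22.5%, 26.2% and 29.5% against 27.4%, 31.7%, 32.4% and 46.0%. Median widths in the first 3 classes were alike, at 523, 522 and 548 bp for WT-only and 526, 530 and 598 bp for retained peaks, but differed in the last, at 704 and 1010 bp. The log2 ratio of RbL over WT was −0.53, −0.65, −0.51 and −0.87 at WT-only peaks in these classes and −0.83, −0.99, −0.90 and −0.77 at retained peaks. It was thus nearer 0 at WT-only peaks in the first 3 classes and farther from 0 in the last, a difference that was not tested by class. In 4 classes of the lower CAP-H2 score it lay between −0.72 and −0.61 at WT-only peaks.

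The TFIIIC difference was centred on the CAP-D3 peak. At the midpoint of the WT-only peaks, 15.7% and 13.3% lay inside a TFIIIC peak in WT and 7.63% and 7.59% in RbL. At 5 kb to either side the order was opposite, with 12.8% and 14.9% by WT library and 19.1% and 19.6% by RbL library. The log2 ratio of midpoint over flank was 0.30 and −0.16 in WT and −1.33 and −1.37 in RbL, a difference of −1.42 (exact permutation p 0.333, adjusted 0.451). In RbL, TFIIIC was therefore called less often on these peaks than beside them, whereas in WT the midpoint and the flanks were close. Retained peaks had 1.14 and 0.56 in WT and −0.95 and −1.19 in RbL (difference −1.92), with a TFIIIC maximum at the midpoint in WT that the WT-only peaks lacked in library 2. Mirror peaks had 0.29 and −0.55 in WT and −1.66 and −1.70 in RbL (difference −1.55), so the RbL dip was also present where CAP-D3 was called in RbL only. Stable CAP-H2 peaks without CAP-D3 had a difference of −0.48 and WT-only peaks without CAP-H2 one of −0.28. CAP-H2 covered 94.6% of the midpoints in WT and 94.7% in RbL, falling to 8.11% and 8.2% at 5 kb.

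**Figure D4:**
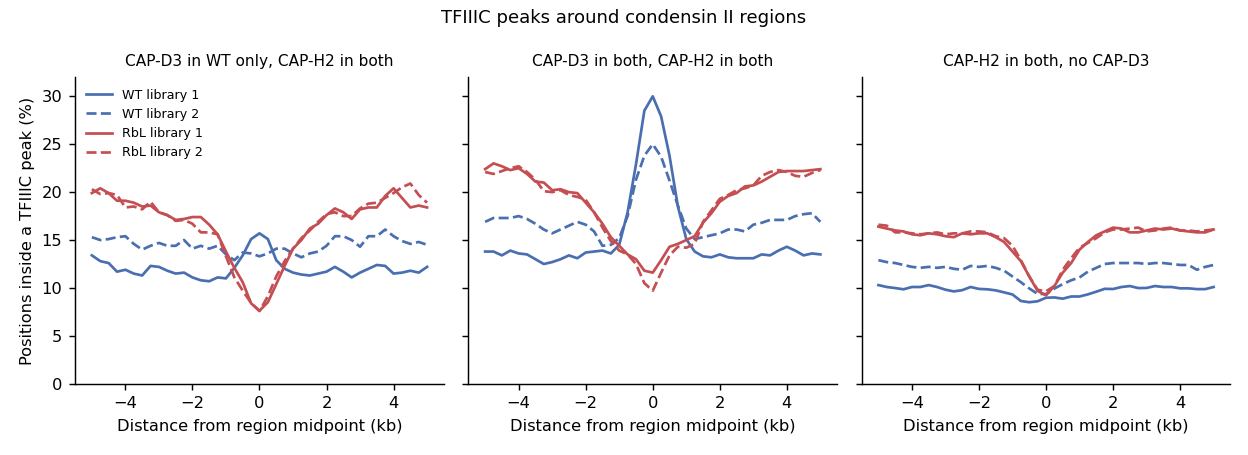
Share (%) of positions inside a TFIIIC peak (y axis) by distance in kb from the region midpoint (x axis), one line per library, for WT-only CAP-D3 peaks at stable CAP-H2, retained peaks and stable CAP-H2 peaks without CAP-D3. At the WT-only peaks the RbL lines dip from 19.1% and 19.6% at 5 kb to 7.63% and 7.59% at the midpoint, and the WT lines stay between 10.7% and 16.1%.

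Most WT-only peaks had no TFIIIC peak in any library, 1448 of 2397 (60.4%, background 55.6%). Both WT and no RbL library had one at 114 (4.76%, 3.94 to 5.69, background 5.09%), both RbL and no WT library at 25 (1.04%, background 1.36%), and all 4 at 120 (5.01%, background 7.68%). Leaving out a library loosens this pattern, so the count of 114 could only stay or rise. It was 251 without WT replicate 1 and 290 without WT replicate 2, where the remaining WT library alone had to hold a peak. Both WT libraries, whatever the RbL libraries held, had TFIIIC at 329 peaks (13.7%, background 17.6%), of which 120 (36.5%, 31.3 to 41.9, background 43.6%) had it in both RbL libraries. That share was 41.8% at retained peaks and 33.1% at mirror peaks, but 72.0% at stable CAP-H2 peaks without CAP-D3 and 70.9% at WT-only peaks without CAP-H2. The 114 peaks with TFIIIC in WT alone had a median CAP-D3 score of 287 and width of 604 bp, against 222 and 532 bp for the 1448 without TFIIIC.

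H3K27me3 was rare at these peaks. It overlapped 26 and 53 of them in WT (1.08% and 2.21%, background 4.39% and 6.01%) and 77 and 56 in RbL (3.21% and 2.34%, background 7.31% and 6.38%). Both RbL values exceeded both WT values, with a WT mean of 1.65 ± 0.796%, an RbL mean of 2.77 ± 0.619% (SD, n = 2 each) and a log2 ratio of 0.82 (exact permutation p 0.333, adjusted 0.451). Without WT replicate 1 the log2 ratio was 0.31, without WT replicate 2 it was 1.34, and at equal numbers of top-scoring H3K27me3 peaks it was 0.25. The background values were also higher in both RbL libraries, so this order was not particular to these peaks. It held as well at stable CAP-H2 peaks without CAP-D3, with 0.492% and 0.89% in WT and 1.14% and 0.937% in RbL (log2 ratio 0.64). Retained peaks had 2.56% and 3.25% in WT and 5.74% and 3.24% in RbL, where the genotypes overlapped (log2 ratio 0.58, exact permutation p 0.667). The genotypes also overlapped at mirror peaks (log2 ratio 0.72) and at WT-only peaks without CAP-H2 (log2 ratio 0.36). No library had H3K27me3 at 2270 WT-only peaks (94.7%, background 89.5%), and all 4 had it at 9 (0.375%, background 3.17%). Both RbL and no WT library had it at 8 (0.334%, background 0.564%), and both WT and no RbL library at 1 (0.0417%, background 0.122%). Taking both together, 1379 (57.5%, background 49.3%) had neither TFIIIC nor H3K27me3 in any library, 891 (37.2%, background 40.2%) had TFIIIC alone, 69 (2.88%, background 6.23%) H3K27me3 alone and 58 (2.42%, background 4.23%) both.

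The strongest CAP-D3 peak of the set lay on chromosome 14 from 8712627 to 8713539, with a CAP-D3 score of 1800.7 in WT and the nearest RbL CAP-D3 peak 21.7 kb away. Its CAP-H2 scores were 907 in WT and 934 in RbL, and TFIIIC was called only in RbL library 2, with a score of 102. The second, on chromosome 8 from 126755050 to 126755957, had a CAP-D3 score of 1718.1 and CAP-H2 scores of 203 and 172. At the third, chromosome 11 from 114059852 to 114060687 (CAP-D3 score 1606), CAP-H2 scored 265 in WT and 69.0 in RbL, a log2 ratio of −1.94. The fourth, chromosome 8 from 72519120 to 72520906 (CAP-D3 score 1595), had CAP-H2 scores of 1135.3 and 1549.3 and TFIIIC in both WT libraries, at 97.5 and 181, and in no RbL library. Of the 12 peaks with the highest CAP-D3 scores, 6 had the higher CAP-H2 score in RbL, beside 71.5% of all shared CAP-H2 peaks. The peak on chromosome 2 from 26819410 to 26820387, among the 12, was tied at 3100 in both lists. TFIIIC was called in both WT libraries at 4 of the 12, beside 17.6% of all WT CAP-D3 peaks. H3K27me3 was called in any library at 1, beside 89.5% of all WT CAP-D3 peaks with it in none.

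Other peaks stood at the ends of the remaining readouts. The peak on chromosome 2 from 26819410 to 26820387 had CAP-H2 scores of 3100 in both genotypes and, of 123 peaks tied at 3100 in the lower of their CAP-H2 scores, the highest CAP-D3 score in WT, 1097.6. It had TFIIIC in all 4 libraries, with scores of 127 and 473 in WT and 219 and 353 in RbL. Among peaks overlapped by TFIIIC in WT alone, those on chromosome 2 from 167328421 to 167329202 (TFIIIC scores 652 and 935), chromosome 16 from 20672592 to 20673036 (632 and 1840.7) and chromosome 11 from 113544773 to 113545721 (759 and 582) had the highest lower TFIIIC scores. At the first, an RbL TFIIIC peak of each library (scores 138 and 150) lay inside the WT TFIIIC peaks but beside the CAP-D3 peak. TFIIIC was thus called there in both genotypes, and only its overlap with the CAP-D3 peak differed. The reverse was led by chromosome 11 from 119836996 to 119837661, with TFIIIC scores of 1652.1 and 1691.7 in RbL and no WT TFIIIC peak over the CAP-D3 peak. The peak on chromosome 4 from 133807250 to 133807881 lay under H3K27me3 peaks with a score of 3100 in all 4 libraries, had no TFIIIC and had low CAP-H2 scores of 70.8 in WT and 220 in RbL. A similar peak on chromosome 1 from 74849452 to 74849963 had H3K27me3 scores of 1463 and 3100 in WT and 3100 and 3100 in RbL, with CAP-H2 scores of 61.9 and 231.

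**Figure D5:**
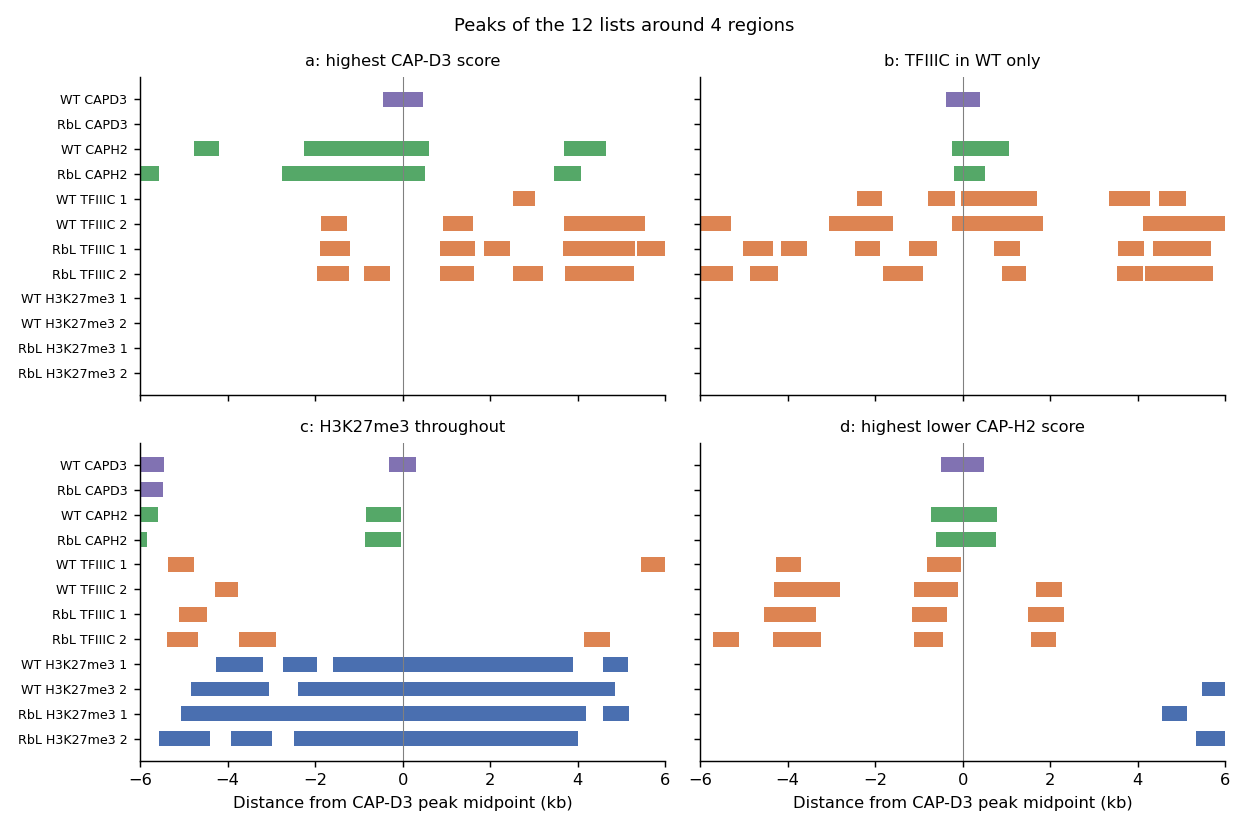
Peaks of the 12 lists (rows) within 6 kb of the CAP-D3 midpoint (x axis, kb) at 4 WT-only peaks: the highest CAP-D3 score (chromosome 14), TFIIIC in WT only (chromosome 2), H3K27me3 in all 4 libraries (chromosome 4) and, by the lower score of the genotypes, the highest CAP-H2 score (chromosome 2, the first of 123 tied at 3100 when ordered by CAP-D3 score). In each, the CAP-D3 peak at 0 is present in the WT row and missing from the RbL row, while both CAP-H2 rows hold a peak that overlaps it. In the second, RbL TFIIIC peaks lie beside the CAP-D3 peak but not on it, and an RbL TFIIIC peak of each library lies inside the WT TFIIIC peaks.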

How the data were processed

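The authors aligned reads to the mm9 build and called peaks, with Bowtie2 2.3.0 and MACS 1.4.0rc2 per the submitters' processing notes; settings are not given in the sources used here. The 12 deposited lists, 1 per immunoprecipitated library and not pooled, give each peak's position and a score from the authors' peak caller, which depends on depth and input. It was used to rank and describe peaks. By their titles, inputs were shared: CAP-D3, CAP-H2 and H3K27me3 replicate 2 used the same input in WT, and CAP-D3, CAP-H2 and H3K27me3 replicate 1 in RbL. Lists of the 8 inputs were not analysed here.

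Overlaps of 1 bp were computed in Python 3.11.15 (numpy 2.4.6, pandas 2.3.3, scipy 1.17.1), tested on simulated peaks and checked with bedtools 2.31.1, which gave the same 2397 peaks. Where several peaks overlapped a region, the highest score was taken. Coordinates are 1-based. Other chromosomes were left out. For TFIIIC and H3K27me3, log2 shares per library were compared with exact permutation tests over 6 arrangements. Replicate numbers were not treated as pairs in these tests. Deviations of same-numbered libraries correlated at 0.012 (TFIIIC) and 0.07 (H3K27me3) over 17192 peaks, which does not show whether such libraries were prepared together. The choice of peaks, classes and tests was made with earlier results of these data known. Named regions are the leaders of lists ranked by CAP-D3, CAP-H2, TFIIIC or H3K27me3 score, those nearest the 1 kb limit and the fullest 1 Mb windows; CAP-H2 blocks holding several peaks were chosen after their values were seen. Alternatives were a score of at least 100, other distance and overlap limits, equal peak numbers, leaving out each replicate or the 89 regions in all 12 lists, a replicate block and differences in percentage points.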

Additional observations from a re-analysis of the deposited data

Results flagged for a closer look

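Both WT TFIIIC libraries lay above both RbL libraries at WT-only CAP-D3 peaks with stable CAP-H2 (24.7% and 23.4% against 15.2% and 15.4%), and below them at WT-only CAP-D3 peaks without CAP-H2 (10.2% and 11.4% against 13.2% and 14.0%). The log2 ratio of RbL over WT differed between these classes by −0.98. The same contrast with stable CAP-H2 peaks that had no CAP-D3 peak (18.7% and 20.0% against 20.6% and 21.0%) gave −0.76. Each exact permutation p was 0.333, the smallest possible here. The opposite directions came with TFIIIC lists that were longer in RbL: at equal peak numbers the log2 ratios were −1.14, −0.10 and −0.25 in the 3 classes, with the libraries of the genotypes overlapping in the second.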

How the results depend on the processing

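The number of peaks meeting the rule fell to 1345 when the CAP-D3 lists were cut to equal numbers of top-scoring peaks, and otherwise lay between 1963 and 2646. Their share of WT-only CAP-D3 peaks was 26.8% at a score of at least 100, 33.2% with any RbL peak that did not overlap allowed, 30.7% with none within 5 kb and 29.1% with CAP-H2 covering at least 50%. The share with the higher CAP-H2 score in RbL was 67.1% at equal numbers of CAP-D3 peaks. The TFIIIC log2 ratio at these peaks was negative under all 15 alternatives, from −0.15 (within 1 kb) to −1.14 (equal peak numbers), and −0.69 to −0.61 without any 1 library; the midpoint ratio lay between −1.68 and −1.19, and the difference from retained peaks between 0.07 and 0.47 (0.09 to 0.19 without any 1 library). The count with TFIIIC in WT alone was 159 to 290 without 1 library, a looser pattern that can only keep or raise the count. The H3K27me3 log2 ratio, at 0.25 to 1.34, stayed positive, but its difference from retained peaks ran from −0.10 (without WT replicate 1) to 0.59 and was −0.45 in percentage points; the cause was not tested. With the replicate block the TFIIIC value stayed at −0.65 and H3K27me3 at 0.82, with exact sign-flip p-values of 0.5, the smallest possible, and the block changed no call. No alternative could bring a p-value under 0.05. Unknown depth limits what a missing CAP-D3 peak means: it is a place without a call, not a place shown to lack the protein.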

Other observations

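Outside chromosomes 1 to 19, 384 WT CAP-D3 peaks were listed, of which 191 had no RbL CAP-D3 peak within 1 kb. Of these 191, 6 had CAP-H2 in both genotypes, all on chromosome X, beside 2397 of 7520 (31.9%) on chromosomes 1 to 19. CAP-H2 peaks were few off these chromosomes, which held 42174 of 42737 in WT and 42626 of 43151 in RbL. Among 1 Mb windows picked after their values were seen, chromosome 13 from 52000001 to 53000000 and chromosome 16 from 24000001 to 25000000 had no RbL CAP-D3 peak at 8 of 9 WT CAP-D3 peaks with stable CAP-H2. Over chromosomes 1 to 19 this held at 2397 of 8635. In the chromosome 16 window, 3 of the peaks lay in a single CAP-H2 block, from 24392463 to 24395668 in WT, and are not independent. Of the 89 regions with a peak in all 12 lists, 6 of the WT-only CAP-D3 peaks overlapped one, although the rule asks for no RbL CAP-D3 peak within 1 kb, since a merged region can be wider than that limit. Where TFIIIC was called at a WT-only peak, its scores resembled those of the whole TFIIIC list, with medians of 180 and 307 in WT (list medians 173 and 290) and of 201 and 276 in RbL (list medians 214 and 284). At the 120 WT-only peaks with TFIIIC in all 4 libraries, the median TFIIIC score was 318 and 520 by WT library and 326 and 392 by RbL library.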
